A study of Mus musculus with 2 samples.

Results

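Accessible chromatin was examined at the loci of 7 genes of hematopoietic stem cells and early progenitors, in early thymic progenitors of wild-type mice and of mice with a double knockout of the E proteins E2A and HEB. The genes were Kit, Flt3, Hoxa9 with the Hoxa cluster around it, Meis1, Lmo2, Mef2c and Bcl11a. All peaks with their centre in a window set around each gene were taken, which gave 152 of the 85764 peaks of the wild-type list and 126 of the 69896 peaks of the double-knockout list. In the double knockout, some of the strongest regions of Mef2c, Bcl11a, Flt3 and Meis1 ranked far lower. The Kit locus held several regions that ranked higher and also a fall in rank about as large as the largest at Flt3 and Bcl11a. The Hoxa cluster had no region past 20 percentile points. The windows are defined in mm9 coordinates and span 200 to 400 kb, 2170 kb in all. They also hold sequence outside the gene, and no mm9 annotation was used here, so a peak is assigned to a locus by position and not to a promoter, intron or exon.

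Early thymic progenitors (ETPs) are the most immature thymus cells with T cell potential. Both libraries were made by ATAC-seq, which tags open DNA with a transposase, from cells sorted out of the fetal thymus of C57BL/6 mice. The wild-type cells were sorted as negative for CD4, CD8, lineage markers and CD25 and positive for CD44 and Kit. The second library came from E2Afl/flHEBfl/flIL7RCre mice, in which Cre driven by the interleukin-7 receptor gene deletes floxed E2A and HEB alleles in cells that have expressed that gene, and its sort also required YFP. There was 1 library per genotype, so the genotypes were not tested against each other, no difference below has a replicate check, and intervals (exact 95%) cover counting error over peaks only. The deletion itself was not checked here, and the labels used do not give the number of animals behind a library. The wild-type list also held 10 peaks on chromosome Y and the double-knockout list none, so that genotype, the YFP gate and what the Y peaks reflect cannot be told apart as sources of a difference. The 7 loci are on autosomes. In such bulk libraries, fewer cells with an open site and a less open site in each cell cannot be told apart.

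Stem and progenitor genes are active when blood progenitors enter the thymus and are shut down in steps as the cells commit to the T lineage. Kit and Flt3 are receptor tyrosine kinases for the growth factors stem cell factor and Flt3 ligand. Hoxa9 is a homeobox transcription factor and Meis1 its DNA-binding partner of the TALE class. Lmo2 is an adaptor protein that joins E proteins and Tal1 or Lyl1 to GATA factors. Mef2c and Bcl11a are a MADS-box and a zinc-finger transcription factor of lymphoid progenitors. E2A and HEB belong to the basic helix-loop-helix family and bind the E-box, written CANNTG.

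E-boxes in the promoters of these genes were counted in RefSeq sequences of GRCm38.p6, a different build from that of the peaks, so no peak was placed on them. A promoter entry was found for 6 of the 7 genes. Over the 250 bases before each start, CANNTG occurred in 66.2% of 32851 promoter entries. It was in at least 1 entry of Flt3, Hoxa9, Meis1, Mef2c and Bcl11a, a count by gene that cannot be set against that share by entry. By entry, it was not among the letters of either Kit entry or of 1 Mef2c entry, and it was in all others of the 9 entries. The member entries were thus near the share of all promoter entries. The particular E-boxes CAGCTG, present in 13.0% of all entries, and CAGGTG (counted on both strands), present in 17.2%, were in none of the 9 entries of the 6 genes. These entries are too few to read that as a depletion, and the 2 Kit entries overlap almost wholly. The Kit and Flt3 promoters are printed because these 2 receptor loci differed in direction in the peak data below. They were thus chosen by that result, and a link between promoter E-boxes and direction was not tested. The Kit sequence is chr5:75574737-75574986 (plus strand) and the Flt3 sequence chr5:147400490-147400739 (minus strand). Capitals mark CANNTG, which lies 245 bases before the Flt3 start.
Kit: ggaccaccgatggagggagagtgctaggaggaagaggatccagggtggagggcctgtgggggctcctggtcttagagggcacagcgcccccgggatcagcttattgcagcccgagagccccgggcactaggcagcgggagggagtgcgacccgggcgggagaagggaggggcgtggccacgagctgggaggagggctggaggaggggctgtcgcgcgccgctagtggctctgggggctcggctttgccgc
Flt3: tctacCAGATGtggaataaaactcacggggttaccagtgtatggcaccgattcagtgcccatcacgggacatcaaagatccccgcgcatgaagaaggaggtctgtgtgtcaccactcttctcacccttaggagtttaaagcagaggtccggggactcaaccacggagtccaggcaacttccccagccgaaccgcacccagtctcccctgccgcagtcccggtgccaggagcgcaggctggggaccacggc

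As a set, the 7 loci were richer in accessible regions than the genome average in both genotypes. They held 7.0 wild-type peaks per 100 kb (5.94 to 8.21) and 5.81 double-knockout peaks (4.84 to 6.91). Over the genome the densities were 3.25 and 2.65, and over the 1 Mb on each side of the windows 4.16 and 3.46. Single loci were less unusual. Of same-length windows tiled over the genome, from 4.52% (Lmo2) to 25.3% (Kit) held at least as many wild-type peaks. For double-knockout peaks these shares ran from 4.21% (Flt3) to 31.8% (Bcl11a). There were 0.829 double-knockout peaks per wild-type peak in the loci and 0.815 over the whole lists. By this measure, the loci as a set followed the difference in list length.

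Peaks of both lists that had at least 1 bp in common were called shared. The 7 loci held 89 shared regions, 63 wild-type-only peaks and 37 double-knockout-only peaks. Library-only peaks were thus 63 of 152 wild-type peaks, against 39.1% of the whole wild-type list, and 37 of 126 double-knockout peaks, against 25.3% of that list. The shared part was 58.6% of wild-type peaks (50.3 to 66.5%) and 70.6% of double-knockout peaks (61.9 to 78.4%). Both intervals include the values of the whole lists, 60.9% and 74.7%.

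The loci differed among themselves in which library held the library-only peaks. Bcl11a had 17 wild-type-only and 4 double-knockout-only peaks, and Lmo2 had 9 and 2. Mef2c had 10 and 4, and the Hoxa cluster 8 and 5. Meis1 had 7 of each. Flt3 had 6 wild-type-only and 7 double-knockout-only peaks, and Kit 6 and 8. Kit and Flt3 were thus the loci with more peaks in the double knockout than in the wild type, 24 against 22 and 20 against 19, although the double-knockout list was shorter. The wild-type-only part of the library-only peaks ranged from 42.9% at Kit (17.7 to 71.1%) to 81.8% at Lmo2 (48.2 to 97.7%). The genome value of 65.5% lies in the interval of each of the 7 loci.

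**Figure D1:**
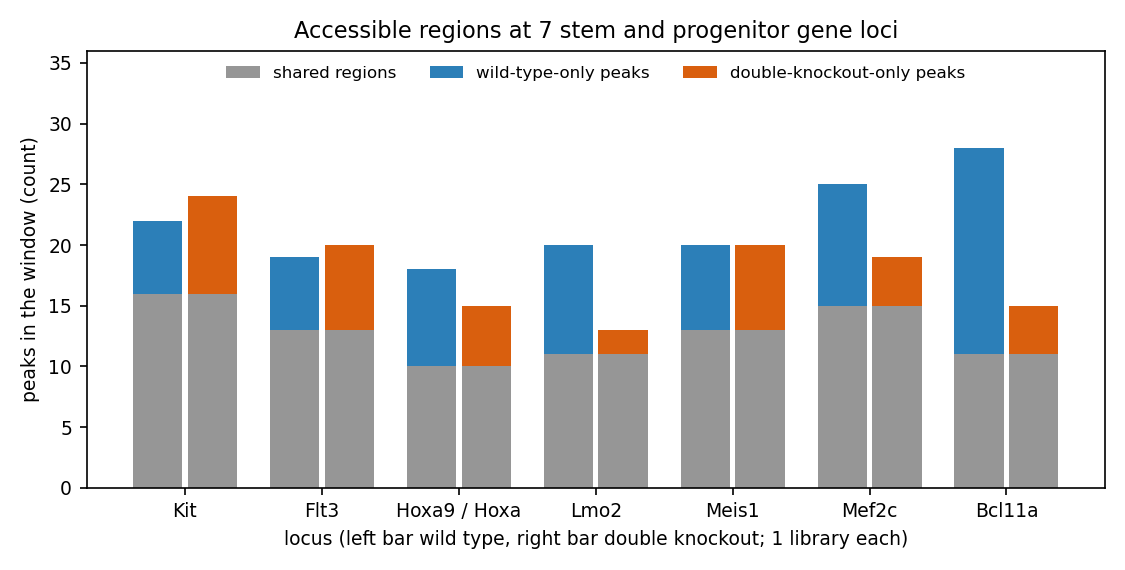
Number of peaks in each window, with the wild-type library on the left and the double-knockout library on the right of each pair (1 library each). Grey is shared, blue and orange are found in that library alone. Bcl11a has the tallest blue segment, with 17 wild-type-only peaks against 4 orange, while at Kit and Flt3 the double-knockout bar is the taller.

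Few double-knockout peaks of the loci were among the strongest of their list. The authors' score of each peak was read as a percentile within its own list. Of the wild-type peaks of the loci, 18 of 152 (11.8%, 7.17 to 18.1%) were in the upper 10% of their list. Of the double-knockout peaks, 5 of 126 (3.97%, 1.30 to 9.02%) were, an interval that lies below 10%. These 5 lay at Kit (2), Meis1 (2) and Flt3 (1). Hoxa had none in either list.

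To set the libraries side by side, the 52206 shared regions of the genome were ranked by score in each library. A rank below is the percentile among these same regions, and a rank difference is the double-knockout rank minus the wild-type rank. Regions found in a single library have no such difference. A region is named by the mm9 start (counted from 1) of its peak, in the wild-type list where it is shared. Over the genome the median difference was 0.55 points, and the middle 50% of regions lay between -7.62 and 9.25. In the 89 regions of the 7 loci the median was -7.28 (-12.2 to -2.83), and 61 ranked lower and 28 higher in the double knockout. In the flanks of 1 Mb the median was 0.0776 (-0.997 to 1.23) over 346 regions.

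A difference of over 20 points towards a lower rank was found in 23 of the 89 regions (25.8%, 17.1 to 36.2%), against 12.0% of all shared regions. In the other direction it was found in 10 (11.2%, 5.52 to 19.7%), against 11.3%. Of the 10 regions ranked higher, 8 were at Kit, 1 at Flt3 and 1 at Meis1. Of the 23 ranked lower, 8 were at Mef2c, 4 each at Flt3 and Meis1, 3 at Bcl11a, and 2 each at Kit and Lmo2. Without Mef2c the count of lower regions was 15, with no interval taken. Whether the share without Mef2c departs from 12.0% was not tested. The Hoxa cluster had no region past 20 points either way. With percentiles within each whole list in place of ranks among shared regions, the genome median was -2.67, and 33 regions of the loci were over 20 points lower, against 17.8% of all shared regions. With that scale 9 were over 20 points higher, against 7.40%, and the counts of lower regions were 8 at Bcl11a and 4 at Lmo2.

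The lower ranks were frequent among the strongest regions. Of the 20 shared regions of the loci with a wild-type rank of at least 80, 9 ranked over 20 points lower in the double knockout, against 7.99% of 10412 such regions over the genome. They were spread over 5 loci: 3 at Flt3, 2 each at Meis1 and Mef2c, and 1 each at Kit and Bcl11a.

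**Figure D2:**
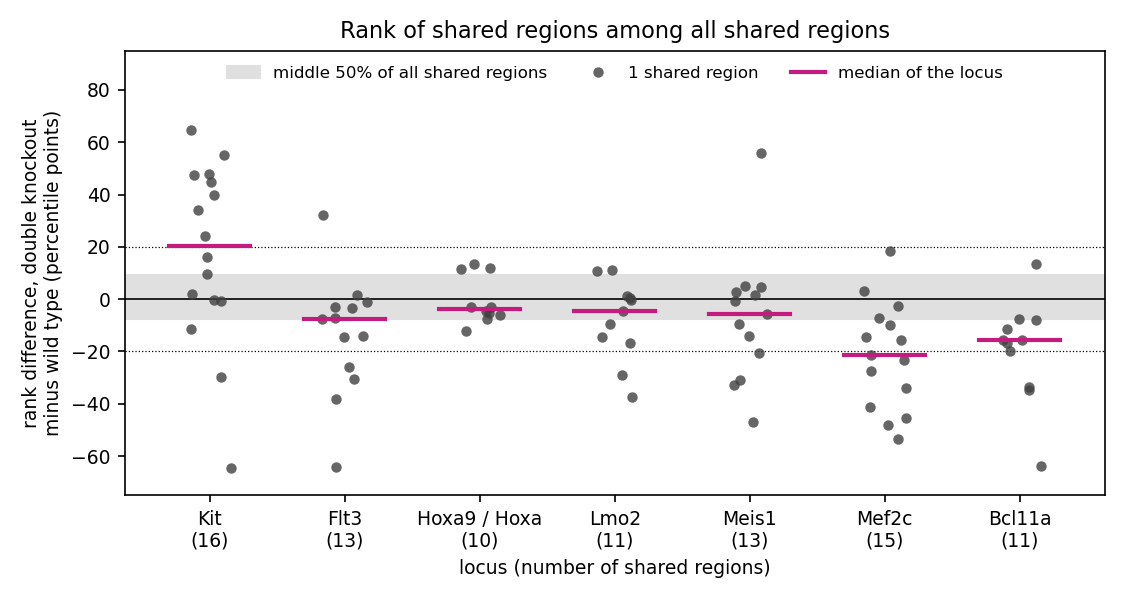
Rank difference (double knockout minus wild type, percentile points among all shared regions) for each shared region of the 7 loci, with the locus median as a line, the middle 50% of all shared regions as a grey band and dotted lines at 20 points. The Kit median is at 20.2, the other 6 medians are below 0, and Mef2c at -21.2 is the lowest.

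The Kit locus (chr5, 75750000 to 76150000) had a median rank difference of opposite sign to that of the other 6. Its wild-type peaks were of low to middling strength, with a median percentile of 34.3 in their list, and its double-knockout peaks had a median percentile of 44.7 in theirs. Its 16 shared regions had a median rank difference of 20.2 points, with an interval of -0.838 to 47.4 that includes 0. Of these regions, 11 ranked higher and 5 lower in the double knockout. Kit also had the lowest wild-type ranks of the 7 loci, with a median of 22.2, and over the genome regions of low wild-type rank tended to rank higher in the double knockout. Among all shared regions with a wild-type rank under 30, a limit chosen after the values were seen, the median difference was 7.29 points and 25.6% were over 20 points higher. At Kit 7 of the 10 such regions were over 20 points higher, and at the other 6 loci 2 of 16. Among 3541 windows of 400 kb tiled over the genome with at least 5 shared regions, 0.904% had a median at least as high, a share that takes no account of wild-type rank. The median was 6.25 with the window widened by 50 kb on each side. It was 3.03 over the 3 regions left in the upper 50% of both lists, with ranks taken anew among fewer regions. Its size thus varied with the extent of the window and with the part of the lists used.

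The regions ranked higher at Kit began with a group of 3 at the low-coordinate end, spaced by 4.52 and 2.60 kb. At 75774780 the score was 3.83 in wild-type and 15.9 in double-knockout cells, and the rank went from 4.60 to 69.4. This is the largest difference towards a higher rank in the 7 loci, 64.8 points. At 75779297 the scores were 11.6 and 35.0, which put the region at percentile 90.3 of the double-knockout list. At 75781901 they were 5.70 and 18.5. In this order, 1.40%, 0.50% and 2.13% of shared regions in the same 10-point band of wild-type ranks ranked as much higher. These 3 regions are neighbours and may not be independent of each other. They were also picked by their values, so the shares do not measure how unusual they are.

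Further regions ranked higher lay across the Kit window. The score was 5.48 in wild-type and 13.6 in double-knockout cells at 75899887, and 4.71 and 11.5 at 75916805. At 75996151 it was 6.68 and 16.8, and at 76058551 6.02 and 12.3. The rank differences of these 4 regions were 40.0 to 47.7 points. Near 75996151, the strongest double-knockout-only peak of the locus (75993944, score 13.4, percentile 69.7) had its nearest wild-type centre 2207 bp away.

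The 2 strongest regions in the middle of the Kit window ranked nearly alike in both libraries. The region at 75970889 scored 34.9 in wild-type and 37.5 in double-knockout cells, a rank difference of -0.84. Its neighbour at 75971753 scored 22.8 and 25.8. The largest Kit difference towards a lower rank was near the high-coordinate end, at 76126858. There the score was 29.5 in wild-type and 5.10 in double-knockout cells and the ranks were 86.3 and 21.9. This difference of -64.4 points was close to the largest falls at Flt3 (-64.2) and Bcl11a (-63.8). The centres of the 2 peaks of that region lay 80 bp apart, and a double-knockout-only peak with a score of 3.72 lay 553 bp from the wild-type centre. The strongest wild-type-only peak, 76140619 (score 15.7, percentile 77.3), lay in the same part of the window, with the nearest double-knockout centre 5134 bp away. The Kit protein was a marker of both sorts, so all cells of both libraries were chosen for it.

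Flt3 (chr5, 148080000 to 148300000) was the locus with the strongest wild-type peaks. Their median percentile was 80.8 in the wild-type list, against 58.9 for the double-knockout peaks in theirs, and 5 of 19 wild-type peaks but 1 of 20 double-knockout peaks were in the upper 10%. The 13 shared regions had a median rank difference of -7.49 (-30.4 to -1.25), and 11 ranked lower in the double knockout. The number of peaks at the locus was nearly equal, as given above.

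The largest difference at Flt3 was at 148152712. Its score was 31.8 in wild-type and 5.31 in double-knockout cells, with ranks of 88.0 and 23.8 and with peak centres 8 bp apart. Of the shared regions in the same 10-point band of wild-type ranks, 2.15% ranked as much lower. The region was picked as the largest fall of the locus, so this share does not measure how unusual it is. At 148174739 the score was 25.7 and 8.39, and at 148211866 32.7 and 13.0, with differences of -38.0 and -25.8 points. The region at 148178040 scored 37.1 and 21.1, a difference of -14.1.

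The strongest Flt3 region of both libraries, 148241668, ranked alike in both. It scored 39.5 in wild-type and 49.8 in double-knockout cells, with ranks of 92.3 and 94.0. Close to it, the strongest library-only peaks of both lists were found: a wild-type-only peak at 148238065 (score 21.1, percentile 85.0) and a double-knockout-only peak at 148242627 (score 18.4, percentile 78.1). The latter lay 959 bp from the shared region. At 148260205 the rank was 20.9 in wild-type and 53.2 in double-knockout cells, the locus's largest difference towards a higher rank. At 148204336 a wild-type-only peak (score 17.9) had a double-knockout-only peak (score 5.20) 181 bp away.

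The Hoxa cluster (chr6, 52050000 to 52300000) had the narrowest range of rank differences. Its 10 shared regions had differences between -12.2 and 13.5 points and a median of -3.70 (-7.48 to 12.0). The median was -10.3 with percentiles within each whole list and -12.3 over the 5 regions in the upper 50% of both lists, where 52190471 differed by -23.0 points. In that upper part, ranks were taken anew among fewer regions, so its points are not those of the main ranking. The 3 strongest were among those ranked lower, by at most 12.2 points. At 52171735 the score was 23.3 in wild-type and 18.9 in double-knockout cells. At 52161650 it was 21.2 and 16.2, and at 52190471 13.9 and 9.34. The 8 wild-type-only peaks were led by 52167471 (score 13.6, percentile 72.7), which lies between the 2 strongest shared regions. The other 7 wild-type-only peaks were at percentile 8.51 to 47.4. Of the 5 double-knockout-only peaks, 3 lay at the low-coordinate end, between 52065721 and 52088712, where the wild-type list had none. The strongest of these, 52088712, scored 10.5 (percentile 61.4) and was 19573 bp from the nearest wild-type centre.

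Meis1 (chr11, 18700000 to 19000000) held 20 peaks in each library, and its regions differed in rank in both directions. The median difference over 13 shared regions was -5.82 (-31.1 to 4.84). Its strongest wild-type region, 18824942, scored 52.4 in wild-type and 14.0 in double-knockout cells, and its percentiles in the lists were 97.8 and 71.0. Of shared regions in the top 10-point band of wild-type ranks, 1.48% ranked as much lower, with 116 bp between the peak centres here. At 18870097 the score was 28.1 and 7.22, the largest difference of the locus at -47.0 points. At 18783645 the ranks were 65.7 and 33.0.

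Other strong Meis1 regions ranked nearly alike. The neighbouring regions 18918954 and 18920454 scored 34.3 and 27.6 in the wild type and 42.5 and 34.4 in the double knockout, and their ranks differed by 1.78 and 2.75 points. At 18848979 the score was 29.4 and 24.3. At 18958512 it was 4.82 in wild-type and 15.0 in double-knockout cells, with ranks of 11.8 and 67.6. The strongest double-knockout-only peak of all 7 loci was also here. It lay at 18857173, with a score of 25.2 at percentile 84.8 of its list, 705 bp from a shared region. The strongest wild-type-only peaks, 18776944 and 18777550, scored 12.7 and 12.6 and were neighbours.

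Lmo2 (chr2, 103700000 to 103900000) had the densest wild-type peaks, 10 per 100 kb (6.11 to 15.4), against 6.50 in the double knockout (3.46 to 11.1). Of tiled windows of 200 kb, 4.52% held at least as many wild-type peaks and 13.7% at least as many double-knockout peaks. Both lists shared a strong region at 103785760, with scores of 31.3 and 27.6, and another at 103867902, with scores of 25.5 and 26.8. Beside the first, at 103785213, lay the strongest wild-type-only peak of the 7 loci, with a score of 30.9 at percentile 91.8. A double-knockout peak, that of the shared region, was 538 bp away. The median rank difference over 11 regions was -4.45 (-29.1 to 10.9). The 2 regions past 20 points were weaker ones: 103842969 scored 9.86 in wild-type and 3.72 in double-knockout cells, and 103741911 scored 8.76 and 3.93.

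Mef2c (chr13, 83500000 to 83900000) had the lowest median rank difference, -21.2 points (-41.1 to -7.28) over 15 shared regions, of which 13 ranked lower in the double knockout. Of tiled windows of 400 kb with at least 5 shared regions, 1.30% had a median as low. With tiles of their own window length, the shares were 9.81% for Flt3, 13.6% for Meis1, 16.7% for Lmo2 and 19.5% for the Hoxa cluster. These shares take no account of wild-type rank, and no allowance was made for picking the lowest locus. The median wild-type rank at Mef2c was 63.8. Over the genome, 23.6% of shared regions with a wild-type rank of 60 to 70 were over 20 points lower. The lower ranks at Mef2c were seen at the strongest sites. At 83711344 the score was 55.7 in the wild type, the highest of the 7 loci, and 9.77 in the double knockout. At 83748504 it was 49.3 and 12.6. Their percentiles in the wild-type list were 98.2 and 97.3, and in the double-knockout list 58.5 and 67.8. The peak centres lay 24 and 7 bp apart, and 0.79% and 1.33% of shared regions in the top 10-point band of wild-type ranks ranked as much lower.

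At 6 more Mef2c regions the rank was over 20 points lower. The largest difference, -53.3 points, was at 83789532, with scores of 14.9 and 4.03. At 83597892 the scores were 15.3 and 4.67, and at 83671155 16.6 and 5.84. The third strongest region, 83854699, scored 21.2 and 16.3 with a difference of -7.28. No double-knockout peak of the locus was in the upper 10% of its list. The 10 wild-type-only peaks were led by 83664625 (score 14.8, percentile 75.4). The flanks of Mef2c had like values: over the 1 Mb on each side, 7 of 14 shared regions ranked over 20 points lower, none over 20 points higher, and the median was -20.3. The difference was therefore not limited to the window. In the flanks of the other 6 loci the medians were between -1.74 and 2.72.

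Bcl11a (chr11, 23900000 to 24300000) had the most wild-type peaks, 28, against 15 in the double knockout. Its shared part of wild-type peaks was the lowest of the loci, 39.3% (21.5 to 59.4%), an interval that lies just below the 60.9% of the whole list. The interval of every other locus includes that value, and no allowance was made for picking the lowest. Its library-only peaks included 11 wild-type peaks with no double-knockout centre within 5 kb, which is 39.3% of its wild-type peaks (21.5 to 59.4%), an interval that includes the 22.7% of the whole list. The strongest of these, 24257499, scored 17.5 (percentile 80.4), and 3 more followed between 24262114 and 24295605, where the double-knockout list had no peak. The strongest wild-type-only peak, 23981304, scored 23.1 (percentile 86.9), with a double-knockout centre 4913 bp away.

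The 11 shared Bcl11a regions had a median rank difference of -15.7 (-34.6 to -7.39), and 10 ranked lower in the double knockout. Of tiled windows of 400 kb with at least 5 shared regions, 2.37% had a median as low, a share that takes no account of wild-type rank. At 24085038 the score was 28.7 in wild-type and 5.10 in double-knockout cells, with ranks of 85.7 and 21.9. The strongest region, 23976314, scored 37.1 and 28.5 with a difference of -7.39. At 23949328 it was 18.7 and 13.9. The region that ranked higher, 24031976, scored 14.9 and 22.3. In the flanks of Bcl11a the median was -0.602 over 30 regions.

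**Figure D3:**
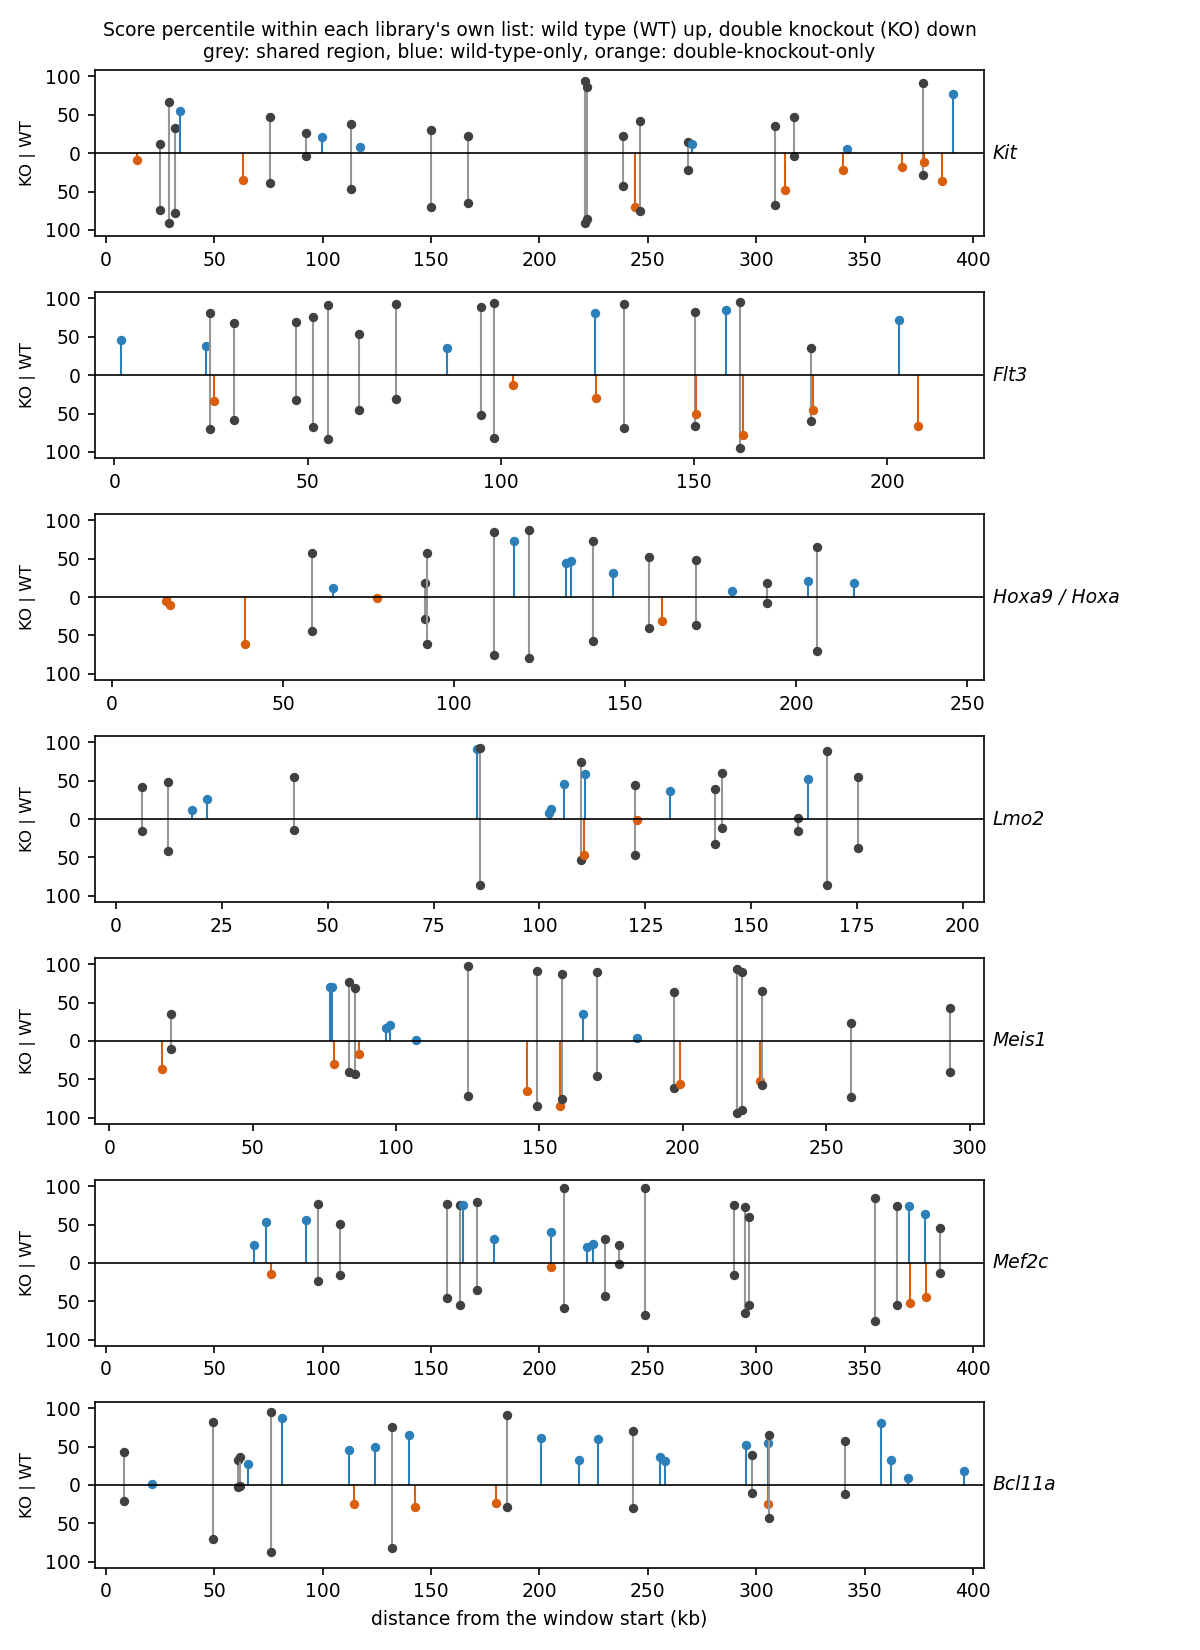
Score percentile of every peak of the 7 loci within its own list, wild type upwards and double knockout downwards, against the distance from the window start in kb. Grey stems are shared regions, blue and orange stems are found in 1 library alone. A stem that reaches far up and little down, as at Bcl11a near 185 kb, was strong in the wild type and weak in the double knockout, and the stems at the left end of Kit show the opposite.

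Across the loci, the differences were thus uneven from site to site, and strong sites that ranked alike and strong sites that ranked lower stood in the same window. In Kit, Flt3, Meis1 and Bcl11a, a region in the upper 10% of the wild-type list that differed by under 10 points stood within 200 kb of another in the upper 10% that differed by over 30.

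**Figure D4:**
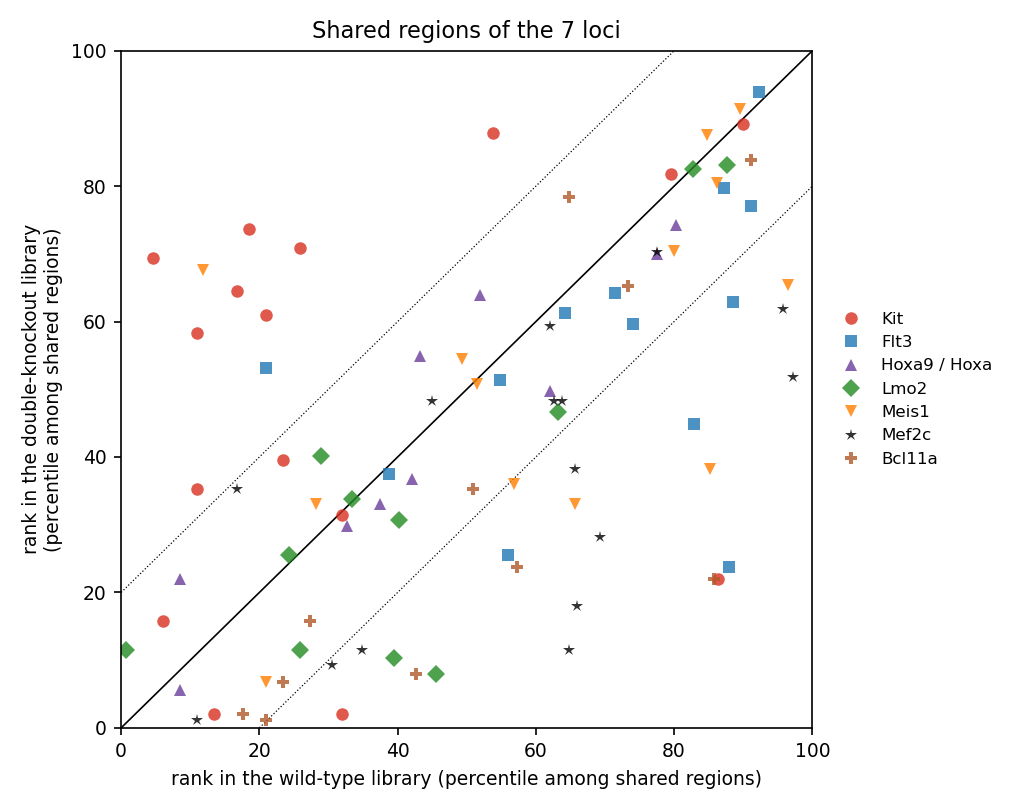
Rank of each shared region of the 7 loci in the wild-type library (x) and in the double-knockout library (y), as percentiles among the 52206 regions shared genome-wide. The solid line marks equal rank and the dotted lines 20 points. Of the 10 points above the upper dotted line 8 are Kit regions, and of the 23 below the lower one 8 are Mef2c regions.

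The distance from a peak to the other list was compared with the whole lists. No double-knockout centre lay within 5 kb of 36 of 152 wild-type peaks (23.7%, 17.2 to 31.3%), against 22.7% of the whole list. In the double knockout this held for 10 of 126 peaks (7.94%, 3.87 to 14.1%), against 8.74%. Peaks with a centre of the other list within 500 bp were 5 of the 63 wild-type-only peaks (7.94%, 2.63 to 17.6%), against 14.6% of all such peaks. They were 9 of the 37 double-knockout-only peaks (24.3%, 11.8 to 41.2%), against 31.2%. Each of the 4 intervals includes the value of the whole list. Of the 32 wild-type peaks of the loci above percentile 80, 27 were shared (84.4%, 67.2 to 94.7%), against 90.0% over the whole list. The 5 others were 2 at Flt3, 2 at Bcl11a and 1 at Lmo2.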

How the data were processed

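Each deposited file lists the peaks of 1 ATAC-seq library with coordinates in mm9, a build named per the submitters' processing notes together with bcl2fastq 1.8.4, Bowtie and HOMER. Settings, read depth and duplicate removal were not given in the sources used here. No unit is stated for the deposited score. Scores are printed for both libraries, but strength was compared only by percentile or rank. The scales were not equal: the median score was 7.99 in wild type and 7.96 in the double knockout, and the 99th percentile 63.8 and 77.1. A pair of scores is therefore not by itself a measure of change. All peaks in the windows are 151 bp wide, so a broad open site can be listed at different places. Peaks were assigned to windows by their centre and matched by 1 bp of overlap, each shared peak having 1 partner, and ranks were taken among the 52206 shared regions. Displaced (500 bp) and isolated (5 kb) peaks were judged by the distance between centres. Matching and ranking were tested on simulated data. Intervals are exact Clopper-Pearson for shares, exact Poisson for densities and order-statistic for medians. The windows, loci and limits were chosen with earlier results of these data known. Per locus, the 3 strongest shared regions, the strongest library-only peaks and the largest rank difference in each direction were named by rule. Other regions were named after their values were seen. A planned list of other stem cell genes was not counted, as it needs an mm9 annotation. Alternatives covered matching, list length, score, window size and each locus left out. Calculations ran in Python 3.11.15 with SciPy 1.17.1, pandas 2.3.3 and NumPy 2.4.6.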

Additional observations from a re-analysis of the deposited data

How the results depend on the processing

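No paired analysis was possible because each genotype had a single library. The median rank difference of the 7 loci was below 0 in all 16 alternatives, from -12.3 to -4.87, with -12.3 in the upper 50% of both lists. Ranks in that upper 50% were taken anew among fewer regions, so a difference of 20 points there is not the same as in the main ranking. In that part of the lists, the shared part of wild-type peaks was 45.7%, the densities were 3.73 and 2.53 peaks per 100 kb, and 11 regions ranked over 20 points lower and 2 higher, since fewer peaks were compared. With peaks up to 500 bp apart taken as shared, the shared part of double-knockout peaks was 79.4%. In windows narrowed by 25% on each side, the wild-type density was 8.29 per 100 kb and 4 regions ranked over 20 points higher. With a limit of 10 points, 37 regions ranked lower and 18 higher. These counts, and those in the upper 50% and in the narrowed windows, were not set beside a share over all shared regions. They do not show a departure from the genome. Without Kit, 2 regions ranked over 20 points higher, and without Mef2c, 15 ranked over 20 points lower. Neither count was set here beside a share over all shared regions. Leaving out each locus in turn gave medians from -9.46 to -4.87. Per locus, the median ranged from 3.03 to 23.5 at Kit, -14.8 to -7.30 at Flt3, -12.3 to -1.95 at Hoxa, -9.0 to -0.186 at Lmo2, -9.58 to -5.65 at Meis1, -29.4 to -17.1 at Mef2c and -28.6 to -11.5 at Bcl11a, so none changed sign in its 9 alternatives. The 33 regions past 20 points were followed through 7 alternatives of matching, list length and rank scale, and none changed direction where it had a value. A value in all 7 was had by 5 regions. In the upper 50% of both lists 27 dropped out, with 50% overlap 5 (76126858 at Kit and 18824942 at Meis1 among them), and with equal list lengths 1 (75774780 at Kit). The upper 50% left out 75774780 at Kit. It also left out the largest falls of Kit (76126858), Flt3 (148152712), Lmo2 (103842969), Meis1 (18870097), Mef2c (83789532) and Bcl11a (24085038). The difference came to 20 points or less for 2 Mef2c regions with equal list lengths and 1 Kit region with percentiles within each whole list. Read depth is unknown, so weak peaks missing from a list cannot be told apart from closed sites.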
